A study of Mus musculus with 32 samples.

Results

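Far intergenic m6A peaks are described here across 16 peak lists from mouse embryonic stem cells: peaks whose summit, the position of highest signal, lay in no annotated mm10 gene body and more than 10 kb from the nearest one. Only peaks on assembled chromosomes were used. Of 496495 such peaks in the 16 lists, 15445 met the rule (3.11%), 28401 were intergenic but within 10 kb of a gene, and 452649 had their summit in a gene body. Merging overlapping peaks of one strand over the lists gave 80035 regions, of which 3885 were far intergenic (4.85%) and 31 of those also held a summit nearer than the limit. The closest far intergenic peak lay 10001 bp from a gene and the farthest peak outside the rule 9998 bp. The 915 peaks just inside the limit (10 to 11 kb) had a median fold enrichment of 4.93 and a median width of 243 bp, and the 1213 just outside it (9 to 10 kb) had 4.95 and 231 bp.

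The study examined how m6A changed in cells knocked out for Mettl14 or Mettl3. The libraries titled Mettl14 CKO, Mettl14 Control, Mettl3 CKO and Mettl3 Control, all C57BL/6 cells, each gave 2 immunoprecipitation libraries from chromatin-associated RNA depleted of ribosomal RNA (caRNA) and 2 from polyadenylated RNA (mRNA). That makes 8 groups of 2 libraries. The cells of all groups grew in serum medium with the cytokine LIF (1000 U/ml), the MEK inhibitor PD0325901 (1 µM) and the GSK3 inhibitor CHIR99021 (3 µM). A CKO and its Control are called a line below. The labels do not say how or how completely a gene was deleted, whether a line is 1 clone, or whether replicates came from separate cultures, so p-values refer to the variation among these libraries alone and part of it may be technical.

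N6-methyladenosine (m6A) is a methyl mark on adenosines in RNA that a nuclear complex places while RNA is being made. METTL3 is the catalytic subunit, and METTL14 is its partner, which helps bind the RNA substrate. In MeRIP-seq, fragmented RNA is pulled down with an m6A antibody, and a peak is a stretch enriched over background. RNA made far from annotated genes includes enhancer RNAs, transcripts of transposable elements and satellites, transcription that runs on past gene ends, and noncoding transcripts that an annotation lacks. Much of it stays on chromatin and is short-lived. The files gave no genome or repeat annotation, so the nearest gene serves below only as a landmark, and no sequence is printed.

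Each list held 37936 to 45217 peaks in caRNA and 16532 to 23370 in mRNA. All 10 embryonic stem cell marker genes checked held a peak in some list and 5 of them in all 16, while all 8 markers of feeder fibroblasts also held one in some list and 1 of them in all 16. A peak does not measure expression, and read depth is unknown. A missing peak therefore cannot tell less methylation from less RNA or fewer reads.

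Far intergenic peaks made up 2.00 to 5.20% of a caRNA list (758 to 2196 peaks) and 1.38 to 4.50% of an mRNA list (311 to 1052 peaks). The highest shares were those of the Mettl14 line. In Mettl14 caRNA, they were 4.21 and 4.24% of CKO peaks, against 5.17 and 5.20% of Control peaks. In Mettl3 caRNA, they were 2.27 and 2.12% in CKO, against 2.00 and 2.24% in Control, and the genotypes overlapped.

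In Mettl14 mRNA, the share was 4.50 and 4.20% in CKO libraries, against 2.14 and 2.31% in Control libraries. In Mettl3 mRNA, it was 1.38 and 1.45% in CKO, against 1.99 and 1.81% in Control. The exact 95% binomial interval of a library reached at most from 4.24 to 4.78%, for Mettl14 mRNA CKO replicate 1. These intervals treat peaks as independent draws and cover counting error only. The CKO mean was thus 1.96 times the Control mean in Mettl14 mRNA (4.35% ± 0.21 and 2.22% ± 0.12, SD, n = 2 each), and 0.816 times in Mettl14 caRNA (4.23% ± 0.018 and 5.18% ± 0.021). It was 0.745 times in Mettl3 mRNA (1.42% ± 0.049 and 1.9% ± 0.13) and 1.04 times in Mettl3 caRNA (2.20% ± 0.11 and 2.12% ± 0.17). The 4 comparisons did not move one way.

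**Figure D1:**
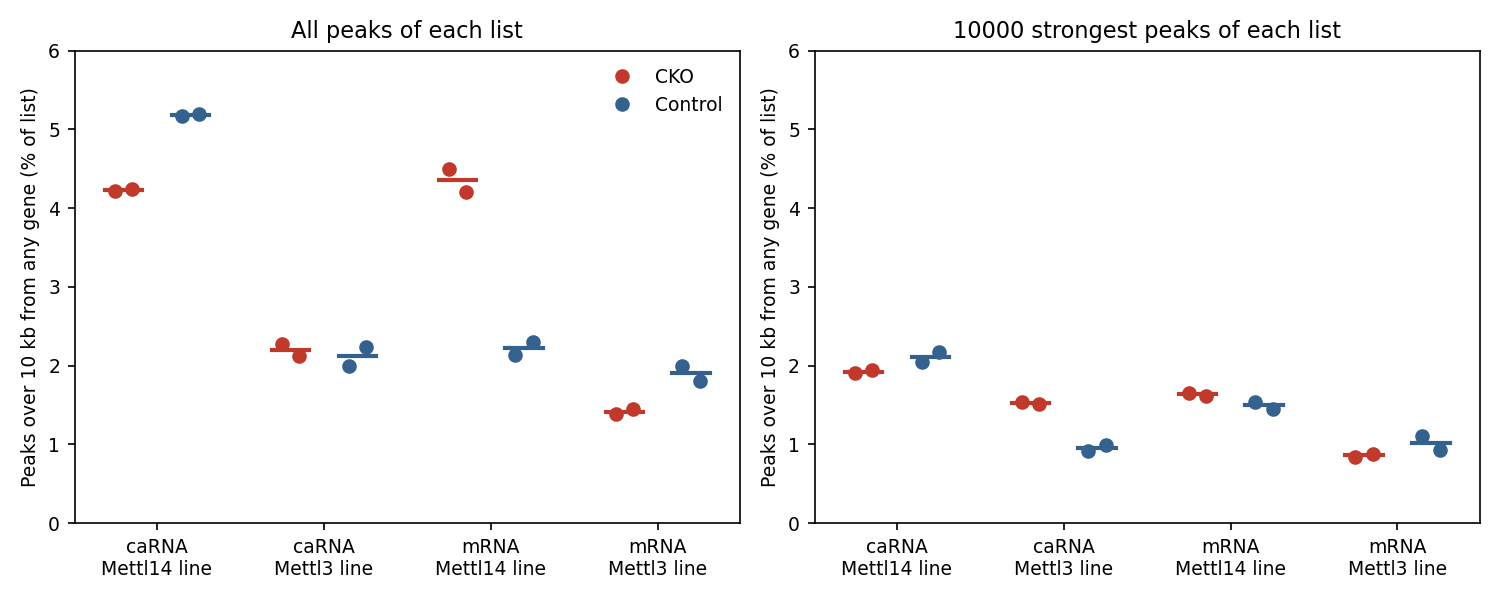
Share of each peak list that is far intergenic (percent, vertical axis) by RNA type and line, for all peaks (left) and for the 10000 strongest peaks of each list (right). Points are libraries and bars group means; in Mettl14 mRNA the CKO libraries are at 4.50 and 4.20% on the left and at 1.65 and 1.62% on the right, against Control libraries at 2.14 and 2.31% on the left and 1.54 and 1.45% on the right.

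None of the 6 differences tested on these shares passed after adjustment over the 6. CKO minus Control was 0.193 percentage points over all comparisons (exact permutation p = 0.495, n = 8 libraries each), -0.437 in caRNA (exact p = 0.278) and 0.822 in mRNA (exact p = 0.333). The caRNA effect differed from the mRNA effect by -1.26 points (exact permutation p = 0.0833, adjusted 0.25). The Mettl14 effect differed from the Mettl3 effect by 0.789 points (exact permutation p = 0.284, adjusted 0.40). A single comparison of 2 against 2 libraries cannot go below an exact p of 0.333.

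Within the Mettl14 line, the CKO effect in caRNA minus that in mRNA was -3.08 points. Within mRNA, the Mettl14 effect minus the Mettl3 effect was 2.61 points. Each had an exact permutation p of 0.0556, the smallest that 36 splits can give. Both contrasts were picked from these data because their effects went in opposite directions, so the p-values are descriptive only.

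These contrasts differed when equal numbers of the strongest peaks were taken, which changes list length and peak strength together. The Mettl14 mRNA lists held 23370 and 22644 peaks in CKO, against 16532 and 17735 in Control. Among the 10000 strongest peaks of each library by the authors' -log10 p, the Mettl14 mRNA share was 1.65 and 1.62% in CKO, against 1.54 and 1.45% in Control, so the ratio of means was 1.09 rather than 1.96. For Mettl14 caRNA it was 1.91 and 1.94% in CKO, against 2.05 and 2.18% in Control. Mettl3 caRNA then showed the widest gap, with 1.54 and 1.51% in CKO, against 0.92 and 0.99% in Control, a ratio of 1.6 where the full lists gave 1.04. In Mettl3 mRNA the values were 0.84 and 0.88% in CKO, against 1.11 and 0.93% in Control. The excess of Mettl14 CKO mRNA lay mostly among weaker peaks.

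The caRNA lists exceeded the mRNA lists by 0.959 percentage points on average over lines and genotypes (exact permutation p = 0.0201, adjusted 0.120). The difference was 2.96 points in Mettl14 Control, 0.783 in Mettl3 CKO and 0.217 in Mettl3 Control, but -0.125 in Mettl14 CKO. It passed the adjusted threshold with a limit of 5 kb (1.59 points, adjusted exact permutation p = 0.00926), with the 10000 strongest peaks (0.378 points, adjusted p = 0.0463) and without Mettl14 mRNA CKO replicate 1 (0.996 points, adjusted p = 0.0185). With a limit of 20 kb it was 0.474 points (adjusted exact permutation p = 0.34).

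Peaks outside genes but within 10 kb of one had CKO to Control ratios in the same direction and closer to 1 in all 4 comparisons. Their share of the list averaged 5.19% in Mettl14 mRNA CKO and 3.93% in Control (1.32 times), and 6.85% in Mettl14 caRNA CKO and 7.94% in Control (0.862 times). In Mettl3 mRNA it averaged 3.78% in CKO and 4.37% in Control (0.865 times), and in Mettl3 caRNA 5.49% in CKO and 5.47% in Control (1.00 times). Of the peaks outside genes, those beyond 10 kb were 45.9 and 45.3% in Mettl14 mRNA CKO, against 35.5 and 36.7% in Control.

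Far intergenic regions were thinly spread. Between the first and last gene of each chromosome, the space more than 10 kb from any gene covered 1021 Mb, 37.8% of the 2703 Mb spanned. Set against this space, the far intergenic regions came to 3.81 per Mb. The other regions came to 45.3 per Mb of the rest of the span. Regions beyond the end genes of a chromosome were counted too, although the space there was not. By chromosome, the density ran up to 5.81 per Mb of such space on chromosome 17 and 5.33 on chromosome 2. It ran down to 3.32 on chromosome 1 and 0.411 on the Y chromosome. There, 88.5% of the sequence between the first and last gene lies more than 10 kb from a gene.

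The median far intergenic region lay 25.9 kb from its nearest gene and the most remote one 577.5 kb. In distance, 1505 regions (38.7%) lay between 10 and 20 kb, 1300 (33.5%) between 20 and 50 kb, 627 (16.1%) between 50 and 100 kb, and 453 (11.7%) beyond 100 kb. The median distance was longer in every Mettl14 than in every Mettl3 library. In the Mettl14 line it was 25.4 and 25.6 kb in caRNA CKO, against 27.9 and 28.6 kb in caRNA Control, and 32.3 and 32.8 kb in mRNA CKO, against 26.9 and 27.4 kb in mRNA Control. In the Mettl3 line the median was 19.0 and 19.5 kb in caRNA CKO, against 21.2 and 22.0 kb in caRNA Control, and 19.6 and 19.8 kb in mRNA CKO, against 21.9 and 22.7 kb in mRNA Control. Mettl14 mRNA was the one comparison in which CKO peaks were the more remote.

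The 3885 regions had 2146 different nearest genes, 4.29% of the 49980 genes in the table. Pseudogenes, copies of genes that mostly make no protein, were nearest to 1186 regions (30.5%) and are 20.9% of the genes. Protein-coding genes were nearest to 1428 (36.8%, and 43.8% of genes) and long noncoding RNA genes to 977 (25.1%, and 25.5% of genes). How much of the space far from genes each type borders was not computed. The shares of genes are therefore no background for these counts, and no enrichment near a type can be read from them.

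The strand of the nearest gene was known for 1881 regions. The largest of the 4 classes was downstream of the gene on its own strand, where transcription past a gene end would fall, with 601 regions (32%). Another 475 lay upstream on the same strand (25.3%), 424 downstream on the other strand (22.5%) and 381 upstream on the other strand (20.3%). The downstream same-strand class was 36.7% of regions at 10 to 20 kb, 29.0% at 20 to 50 kb and 26.6% beyond 50 kb. It was 51.9% of the peaks lying within 10 kb of a gene. That last share counts 18204 single peaks rather than merged regions, so a site found in several lists weighs more in it.

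Far intergenic peaks were narrower than the other peaks in all 16 lists. Their median width per list was 182 to 238 bp, against 240 to 316 bp for the other peaks. The difference averaged -72.8 bp over the 8 groups, from -117 bp in Mettl14 mRNA CKO to -24.5 bp in Mettl3 caRNA CKO (exact sign-flip permutation p = 0.00781 over 8 group means, the smallest possible, adjusted over 3 measures 0.0234). Their median -log10 q was also lower in every list, at 18.9 to 27.4 against 27.7 to 44.5.

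Fold enrichment, the authors' ratio of immunoprecipitated over background signal, did not follow that pattern. The median fold of far intergenic peaks was 4.59 to 4.89 in caRNA lists and 4.99 to 5.62 in mRNA lists, against 4.56 to 5.16 and 4.42 to 5.40 for the other peaks. Ranked within its list, the median far intergenic peak stood at percentile 43.0 to 52.5 in caRNA and 50.9 to 61.2 in mRNA. Against the other peaks the difference averaged 2.29 percentile points, from -6.71 in Mettl14 caRNA Control to 10.9 in Mettl14 mRNA Control (exact sign-flip p = 0.375). Among the 10000 strongest peaks it was 13.4 points (adjusted exact sign-flip p = 0.0234). Those peaks were chosen by -log10 p, which is not independent of fold, so this value does not describe far intergenic peaks in general.

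The plus strand held more of the far intergenic peaks than the minus strand in the Mettl14 line, most of all in its mRNA. There 61.1 and 61.9% of CKO peaks and 63.3 and 65.0% of Control peaks were on the plus strand, and the excess was present on 17 to 19 of 21 chromosomes. In Mettl14 caRNA, 53.7 and 51.8% of CKO peaks were on plus, against 56.8 and 56.5% of Control peaks. In the Mettl3 line the plus share was 50.9 and 52.3% in caRNA CKO, against 50.4 and 51.2% in caRNA Control, and 50.2 and 48.7% in mRNA CKO, against 54.4 and 51.8% in mRNA Control. The other peaks were 49.7 to 51.0% plus in every list.

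Over the 8 groups the plus share exceeded that of the other peaks by 4.49 points, from -1.08 to 13.5, and was above it in 6 of 8 (exact sign-flip permutation p = 0.0469, adjusted 0.0703). It passed after adjustment with a limit of 5 kb (4.65 points, adjusted exact p = 0.0117), with predicted genes and pseudogenes left out of the annotation (2.80 points, adjusted exact p = 0.0117) and with peaks of -log10 q of at least 5 (4.61 points, adjusted exact p = 0.0469). It was 2.6 points among the 10000 strongest peaks (adjusted exact p = 0.453).

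A far intergenic peak seldom faced a peak on the opposite strand. That held for 0.223 to 1.48% of far intergenic peaks per list, against 4.81 to 9.97% of other peaks. The other peaks were wider and lay more densely along the genome, and no comparison at matched density was made. The rarity can therefore not be called particular to far intergenic peaks.

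**Figure D2:**
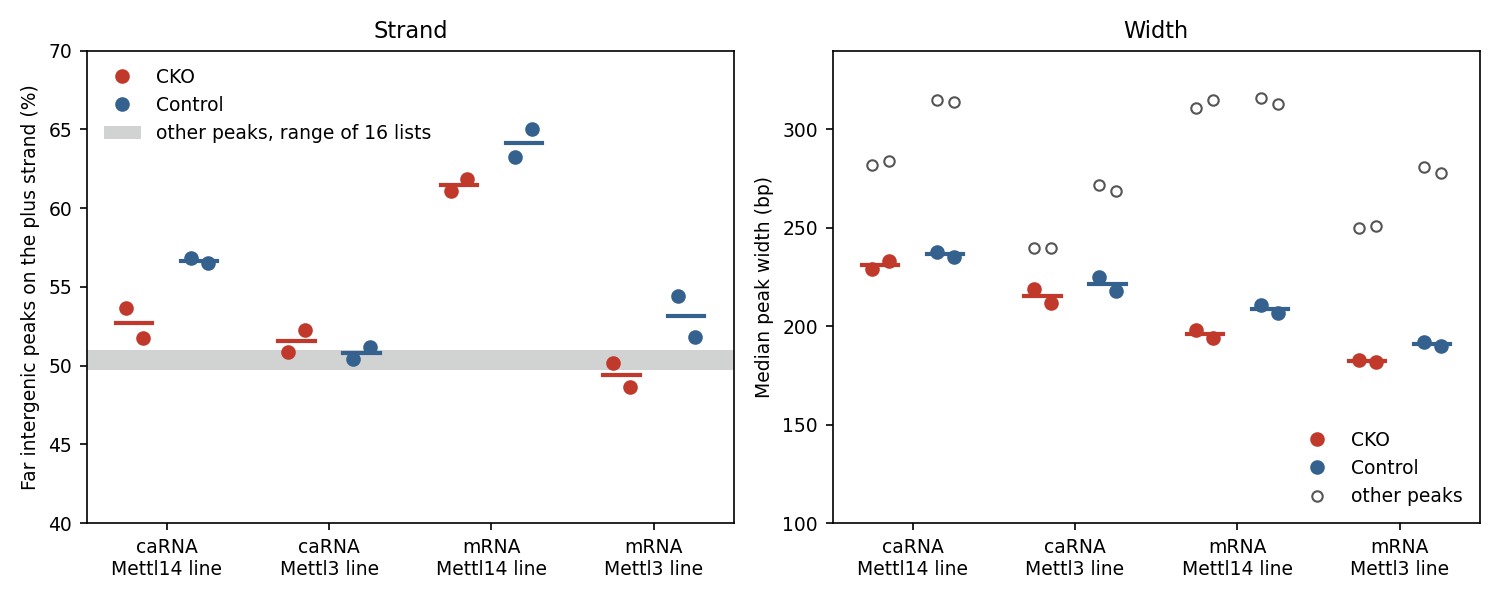
Left, share of far intergenic peaks on the plus strand (percent) by RNA type and line; points are libraries, bars group means, and the grey band is the range of the other peaks, 49.7 to 51.0%. Right, median peak width (bp) of far intergenic peaks (filled) and other peaks (open) in each library: the filled points, at 182 to 238 bp, lie under the open points of their own list; neither vertical axis starts at 0.

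Most far intergenic regions were found in few lists. Of the 3885, 1082 appeared in 1 list (27.9%, against 20.7% of other regions) and 50 in all 16 (1.29%, against 8.75%). By RNA type, 2474 appeared in caRNA alone (63.7%, against 56.2% of other regions), 363 in mRNA alone (9.34%, against 7%) and 1048 in both (27.0%, against 36.8%). By line, 2161 were seen in the Mettl14 line alone (55.6%, against 20.9% of other regions), 726 in the Mettl3 line alone (18.7%, against 27.3%) and 998 in both (25.7%, against 51.9%). Regions of several lists are not independent draws, so these shares carry no test. Line, and whatever differed in how the libraries of each line were made, cannot be told apart.

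The 10 strongest of the 50 regions present in all lists, by their median fold percentile, spanned 290 to 1818 bp. The leading one was an 898 bp region on the plus strand at chr10:70365761-70366658 (mm10), 28.0 kb from the pseudogene Gm20108. Its fold in Mettl14 caRNA was 30.9 and 28.5 in CKO, against 14.3 and 16.9 in Control. In Mettl3 caRNA it was 18.4 and 20.5 in CKO, against 28.7 and 13.7 in Control. In mRNA it was 13.4 and 12.6 in Mettl14 CKO, against 10.5 and 13.6 in Mettl14 Control, and 19.4 and 24.2 in Mettl3 CKO, against 8.46 and 8.26 in Mettl3 Control. No knockout library lost this peak, and in Mettl14 caRNA and Mettl3 mRNA the CKO folds were the higher ones.

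The second, 584 bp on the minus strand at chr13:66551982-66552565, lay 13.8 kb from the pseudogene Gm49399. It reached 28.7 and 32.2 in Mettl3 mRNA CKO, against 17.2 and 12.3 in Control, and 17.6 and 14.7 in Mettl14 mRNA CKO, against 13.5 and 12.7 in Control. In Mettl14 caRNA it had folds of 17.2 and 19.6 in CKO, against 23.0 and 22.6 in Control. In Mettl3 caRNA it had 8.07 and 10.2 in CKO, against 11.1 and 12.7 in Control. At this region the CKO folds were higher in mRNA and lower in caRNA, in both lines.

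Another region of this set was separated by RNA type. It lay at chr2:175166645-175167768 (minus strand), 16.9 kb from Gm14393, and had folds of 3.35 to 11.3 over the caRNA lists and 15.3 to 27.1 over the mRNA lists, with no overlap. One at chr8:107108792-107109522 (minus strand) lay 12.8 kb from Terf2, which encodes a telomere-binding protein. Its folds were 8.34 to 15.2 over the caRNA lists and 2.87 to 12.2 over the mRNA lists, which overlap. A region at chr7:42998191-43000008 (plus strand), 20.1 kb from the vomeronasal receptor gene Vmn2r126, had 25.1 and 24.0 in Mettl14 caRNA CKO, against 19.1 and 19.6 in Control. It had 24.1 and 11.7 in Mettl14 mRNA CKO, against 6.46 and 7.87 in Control. In the Mettl3 line it had 5.64 and 12.7 in caRNA CKO, against 12.7 and 13.6 in caRNA Control, and 7.31 and 14.5 in mRNA CKO, against 8.72 and 5.86 in mRNA Control. Folds are the authors' values within a list, and their differences between lists were not tested.

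There were 57 regions with a peak in all 8 caRNA lists and in no mRNA list, and 0 of the reverse kind: a region seen in no caRNA list reached at most 6 mRNA lists. The first by median fold percentile was a 261 bp region on the plus strand at chr19:23092989-23093249, 17.2 kb from the long noncoding RNA gene C330002G04Rik. Its fold was 24.3 and 16 in Mettl3 caRNA CKO, against 12.7 and 11.6 in Control, and 7.81 and 9.79 in Mettl14 caRNA CKO, against 4.59 and 5.86 in Control. All 4 CKO libraries exceeded the Control libraries of their own line. The next, at chr6:67238167-67238435 (plus strand), lay 28.7 kb from Serbp1, which encodes an RNA-binding protein. It had folds of 10.8 and 11 in Mettl14 caRNA CKO, against 9.79 and 8.91 in Control, and 9.74 and 12.5 in Mettl3 caRNA CKO, against 8.55 and 6.71 in Control.

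**Figure D3:**
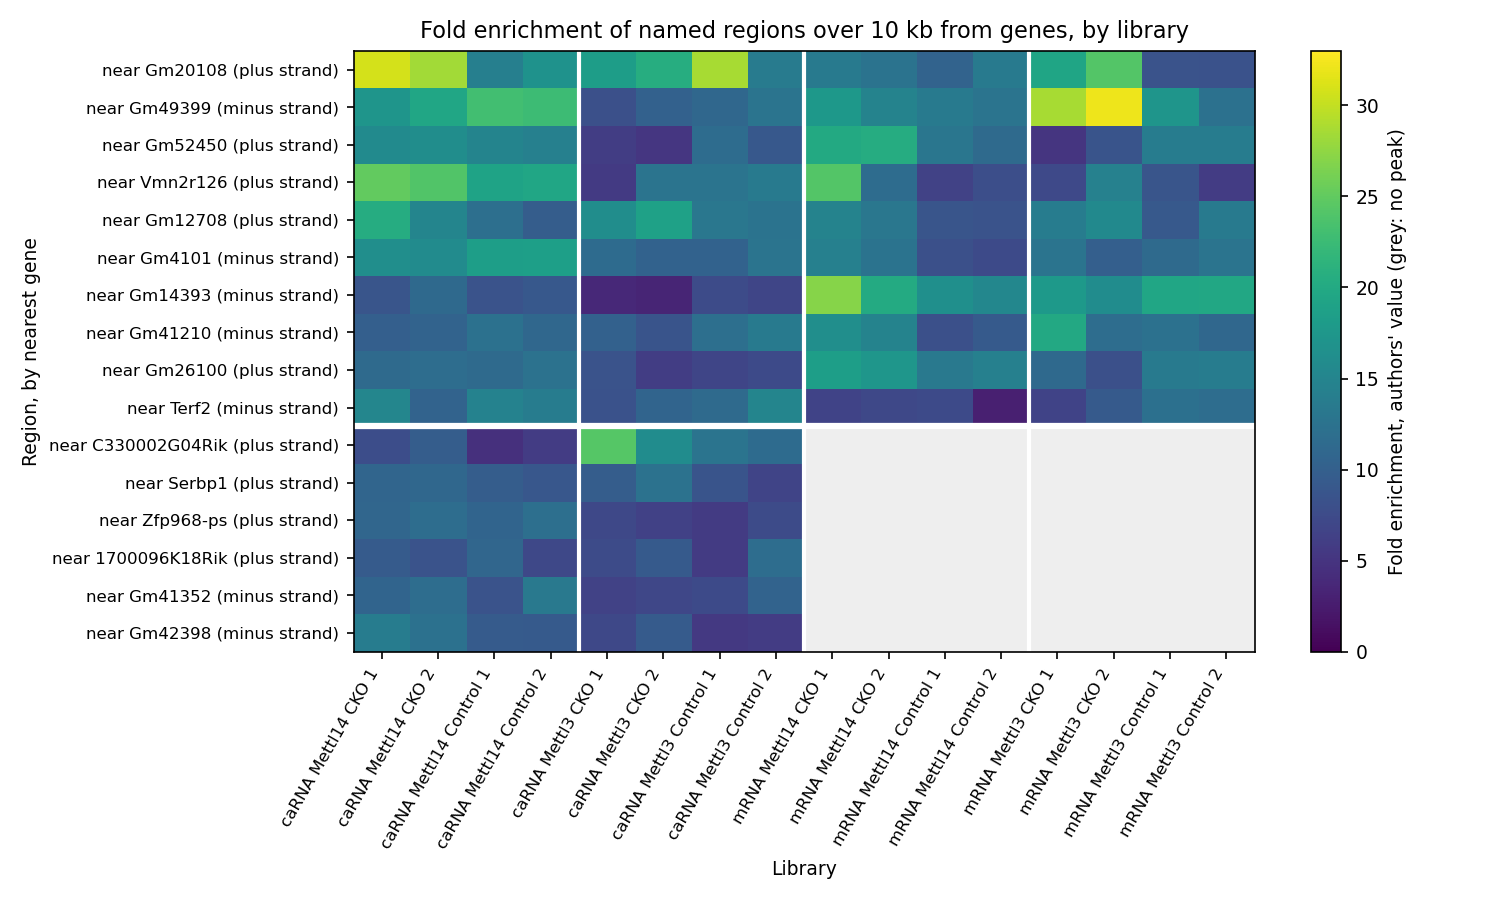
Fold enrichment (colour, authors' value) of the 10 strongest far intergenic regions present in all lists (upper rows) and of 6 regions present in all caRNA and no mRNA list (lower rows), in each of the 16 libraries (columns). Rows are labelled by nearest gene; the region near Gm20108 is strongest in Mettl14 caRNA CKO replicate 1, at 30.9, and grey cells mark the absence of a peak.

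Within each comparison, a region was called lost if both Control lists and neither CKO list held a peak there, gained in the reverse case, and retained if all 4 lists did. In Mettl14 mRNA, 412 of the 812 far intergenic regions of both CKO libraries were gained (50.7%, against 25.6% over all regions of the comparison). Only 11 of the 298 regions of both Control libraries were lost (3.69%, against 6.33%), and 284 were retained. With the 10000 strongest peaks of each library, 14.8% of far intergenic regions were gained (12.2% over all regions) and 17.1% lost (10.1% over all regions). These were 19 gained and 19 lost regions. Over all regions the same setting gave 1083 gained and 827 lost, where the full lists gave 5193 and 893. Lists cut to equal length even out gains and losses, so this setting cannot tell why gains exceeded losses in the full lists.

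In Mettl14 caRNA, losses outnumbered gains. There 405 of 1752 Control regions were lost (23.1%, against 15.7% over all regions), 105 of 1213 CKO regions were gained (8.66%, against 9.16%) and 1027 were retained. With a library left out, a call needs fewer libraries, so the share is not comparable with 8.66%. Without CKO replicate 1 the gained share was 14.5% and without CKO replicate 2 it was 14.9%. With the 10000 strongest peaks it was 17.5% (14.7% over all regions). With summits matched within 100 nt it was 13.1%, and the share over all regions is not given for that setting.

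In Mettl3 caRNA, both shares of far intergenic regions were above those of all regions in the full lists. Gains numbered 234 of 724 (32.3%, against 16.9% over all regions) and losses 159 of 594 (26.8%, against 16.4%), with 363 retained. Among the 10000 strongest peaks the losses lay under the background instead, at 20.3% (30.3% over all regions). In Mettl3 mRNA, 78 of 333 Control regions were lost (23.4%, against 10.2%), 28 of 243 CKO regions were gained (11.5%, against 9.95%) and 194 were retained. Calls with a library left out again need fewer libraries and are not comparable with the full ones. The gained share in Mettl3 mRNA was 18.5% without Control replicate 1, 17.5% without CKO replicate 1 and 17.7% without CKO replicate 2. It was 19.0% with the 10000 strongest peaks (12.1% over all regions) and 6.73% with predicted genes and pseudogenes left out (9.95% over all regions).

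**Figure D4:**
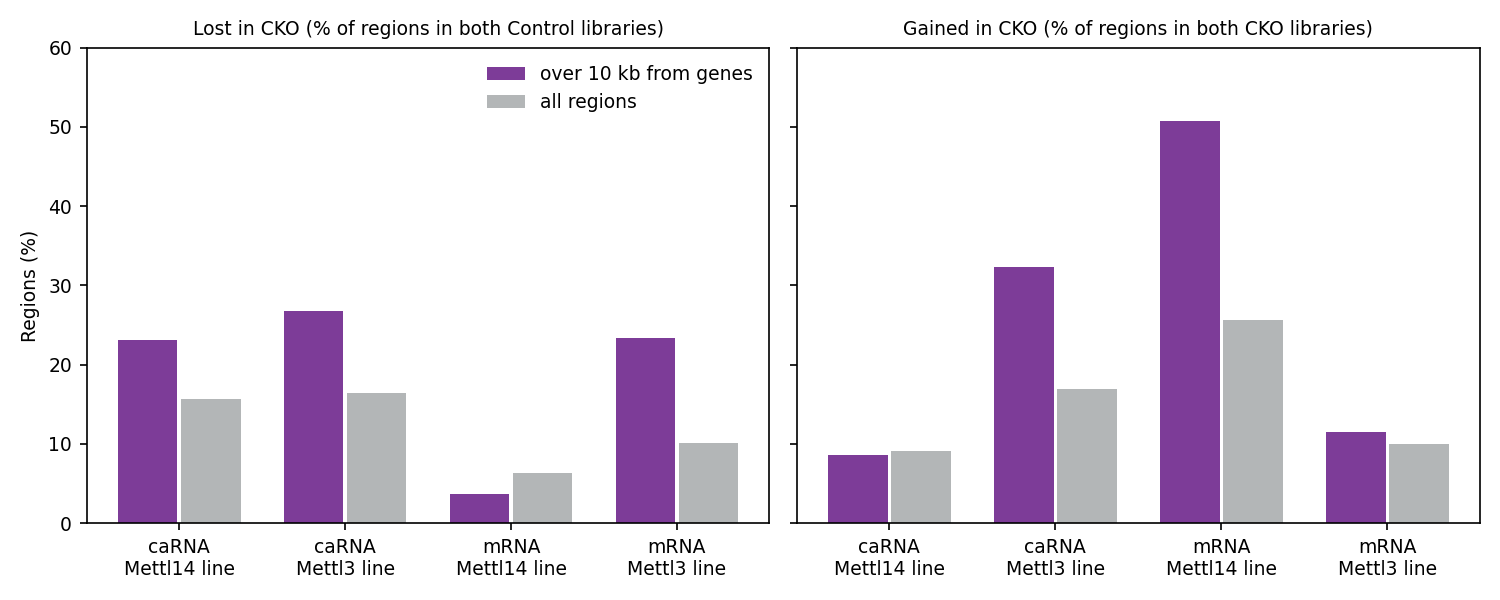
Percent of regions lost (left, of regions in both Control libraries) and gained (right, of regions in both CKO libraries) in CKO cells for the 4 comparisons; purple bars are far intergenic regions and grey bars all regions. In Mettl14 mRNA 50.7% of far intergenic regions are gained against 25.6% of all regions, and in Mettl3 mRNA 23.4% are lost against 10.2%.

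A single CKO library lacked 33.5 and 31.0% of the far intergenic Control regions in Mettl14 caRNA, 30.3 and 35.4% in Mettl3 caRNA, 34.2 and 30.9% in Mettl3 mRNA, and 4.36 and 4.03% in Mettl14 mRNA. Over all regions the mean was 21.7, 21.4, 14.9 and 7.49% in the same order. In the other direction a single Mettl14 mRNA Control library lacked 60.6 and 55.2% of the far intergenic regions of both CKO libraries, against a mean of 31.0% over all regions. In the same direction the mean was 12% in Mettl14 caRNA (13.1% over all regions), 41.1% in Mettl3 caRNA (23.4%) and 15.8% in Mettl3 mRNA (14.8%).

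Retained regions had the higher ranks, as a description with no test. Their median fold percentile was 61.4 in Mettl14 caRNA, 69.9 in Mettl3 caRNA, 70.6 in Mettl14 mRNA and 69.6 in Mettl3 mRNA. Lost regions stood at 33.9, 43.2, 49.8 and 54.1, and gained regions at 35.9, 48.2, 48.4 and 54.6, in the same order of comparisons. No lost region exceeded a fold of 11.2.

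The 5 strongest regions gained in Mettl14 mRNA were on the minus strand, although 58.7% of all 412 gained there were on the plus strand. The first, at chr3:54996881-54997100, 43.7 kb from the long noncoding RNA gene Gm31358, had folds of 14.2 and 14.8 in CKO and no peak in Control. The next were at chr8:119891812-119892068 (9.60 and 10.1 in CKO), 14.9 kb from Klhl36, a Kelch-family gene, and at chr11:117091289-117091541 (9.38 and 11.2 in CKO), 12.5 kb from Snhg20, a host gene of a small nucleolar RNA. The 11 lost regions had folds of at most 6.55 and a median of 4.52, against a median of 5.28 for the gained regions. Ranked within their lists they were not weaker, with a median percentile of 49.8 against 48.4. The region at chr4:127009230-127009403, 11.4 kb from the splicing factor gene Sfpq, had no peak in CKO and 6.07 and 6.55 in Control.

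In Mettl14 caRNA the strongest lost region, at chr12:110347041-110348079 (minus strand, 21.9 kb from the pseudogene Gm9063), had no peak in CKO and folds of 7.58 and 7.75 in Control. One at chr2:178055980-178056208 (minus strand) lay 10.4 kb from the zinc-finger gene Zfp931 and had no peak in CKO and 7.46 and 6.80 in Control. The strongest gained region, at chr14:19419213-19419654 (plus strand, 14.5 kb from the pseudogene Gm9637), had 8.46 and 8.22 in CKO and no peak in Control.

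In Mettl3 caRNA, 2 of the 5 strongest lost regions were neighbours at chr8:12535568-12536876 and chr8:12534190-12534924 on the minus strand, near Spaca7, a sperm acrosome gene. They had no peak in CKO, and in Control 8.61 and 7.92 at the first and 8.13 and 7.85 at the second. The lost region at chr15:83197537-83197774 (plus strand) lay 21.2 kb from Cyb5r3, which encodes a cytochrome b5 reductase, with no peak in CKO and 8.07 and 9.30 in Control. A gained region at chr13:44674566-44674765 (minus strand) lay 37.7 kb from the long noncoding RNA gene Gm40931, with 8.46 and 8.76 in CKO and no peak in Control.

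In Mettl3 mRNA the strongest gained region, at chr6:10147798-10148039 (plus strand, 23.7 kb from the pseudogene Gm5110), had folds of 30.0 and 15.2 in CKO and no peak in Control. The next gained region had 7.05 and 7.29 in CKO, at chr5:109907761-109907918 near Gm26808. A lost region at chrX:104965598-104965823 (plus strand, 17.4 kb from the pseudogene Gm6285) had no peak in CKO and 8.57 and 8.60 in Control.

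Calls shared between the lines were rarer than over all regions for caRNA losses, but not for caRNA gains. In caRNA, 5 regions were lost in both lines (1.23% of the 406 lost in Mettl14 and 3.31% of the 151 lost in Mettl3), when regions were merged over all 16 lists, and 17 were gained in both (16.2% of 105 and 7.33% of 232). Over all regions, those lost in both lines were 8.27% of the Mettl14 and 9.76% of the Mettl3 losses, and those gained in both were 12.5% and 6.16% of the gains. In mRNA, 0 were lost in both lines and 1 was gained in both (0.247% of 405 and 3.57% of 28), whereas 13 of the 72 regions lost in Mettl3 mRNA were gained in Mettl14 mRNA (18.1%, and 3.21% of the 405). Over all regions, 11.8% of the regions lost in Mettl3 mRNA were gained in Mettl14 mRNA. Over all regions, those lost in both lines were 2.36% of the Mettl14 and 1.23% of the Mettl3 mRNA losses. Those gained in both were 2.53% and 6.74% of the mRNA gains. Only 11 far intergenic regions were lost in Mettl14 mRNA, so few could be shared. More generally, a shared call needs a peak in both lines. Of the far intergenic regions, 55.6% were seen in the Mettl14 line alone, against 20.9% of other regions, which limits what could be shared.

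A region lost from caRNA in both lines, at chr14:81796896-81797169 (minus strand, 42.1 kb from the pseudogene Gm18525), had no peak in the 4 CKO lists, against folds of 5.17 and 4.57 in Mettl14 Control and 5.61 and 5.40 in Mettl3 Control. Another at chr10:22769145-22769489 (minus strand, 22.0 kb from the pseudogene Gm17794) had no caRNA peak in CKO, and 4.64 and 4.13 in Mettl14 Control and 3.47 and 4.39 in Mettl3 Control. In Mettl14 mRNA it had 7.97 and 8.89 in CKO, against 4.81 and 5.66 in Control. In Mettl3 mRNA it had no peak in CKO, against 3.96 and 4.09 in Control. Its peak was thus absent from caRNA of both knockouts and present in mRNA of the Mettl14 CKO.

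Among those gained in both lines was a region at chr10:29930893-29931330 (plus strand, 80.2 kb from the pseudogene Gm232). Its caRNA folds were 7.08 and 7.89 in Mettl14 CKO and 7.62 and 5.12 in Mettl3 CKO, with no caRNA peak in Control. It was marked in Mettl14 mRNA of both genotypes, at 15.2 and 13.5 in CKO, against 8.34 and 11.4 in Control. A gained region at chr6:108088741-108088989 (minus strand) lay 11.8 kb from Setmar, which encodes a histone methyltransferase fused in primates to a transposase. Its folds were 5.54 and 4.89 in Mettl14 caRNA CKO and 6.90 and 6.53 in Mettl3 caRNA CKO, with no peak in Control.

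Regions gained in the polyadenylated RNA of the Mettl14 CKO were in part also marked in chromatin-associated RNA. Of the 405 gained there, 240 (59.3%) held a peak of both Mettl14 caRNA Control libraries, which is 13.7% of the 1754 such regions, close to the 63.0% among all regions gained in that mRNA. In caRNA of the same line, 171 of the 405 were retained (42.2%), 28 lost (6.91%) and 7 gained (1.73%), against 53.5, 3.83 and 1.97% of all regions gained in that mRNA.

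Far intergenic regions were shared more within than between genotypes, as regions in general were. The Jaccard index, the share of regions of a pair of lists that both hold, was 0.661 within and 0.517 between genotypes in Mettl14 caRNA, 0.603 and 0.375 in Mettl3 caRNA, 0.679 and 0.341 in Mettl14 mRNA, and 0.634 and 0.489 in Mettl3 mRNA. Within minus between averaged 0.213 (exact one-sided permutation p = 0.0123, the smallest that 81 splits can give). Over all regions it averaged 0.155, with the same exact permutation p. The index is limited when 2 lists differ in length, so a low value need not mean that regions were replaced. In Mettl14 mRNA the lists held 1052 and 952 far intergenic peaks in CKO, against 354 and 409 in Control. There, 284 of the 298 far intergenic regions of both Control libraries were retained.

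Far intergenic regions also lay in runs along one strand. Of 2803 regions present in at least 2 lists, 1438 (51.3%) had a neighbour of the same strand within 10 kb and formed 491 chains. The same share was not computed for other regions, which lay more densely along the genome. Lying in runs can therefore not be called particular to far intergenic regions. In 62 chains of 5 or more lay 382 regions, and 34 of these chains were on the plus and 28 on the minus strand. The Mettl14 caRNA libraries marked 64.9 and 68.8% of the 382 regions in CKO, against 80.1 and 77.7% in Control, while the Mettl3 caRNA libraries marked 36.6 and 35.3% in CKO, against 39.3 and 41.9% in Control. The mRNA libraries marked 28.5 and 26.2% in Mettl14 CKO, against 15.2 and 16% in Mettl14 Control, and 16.8 and 16.2% in Mettl3 CKO, against 20.9% in both Mettl3 Control libraries. Lists with more far intergenic peaks can mark more of these regions. As a share of the far intergenic peaks of a list, peaks in such chains were 17.4 and 17.6% in Mettl14 caRNA CKO, against 14.4 and 14.6% in Control, and 11.4% in both libraries of Mettl14 mRNA CKO, against 17.2 and 15.4% in Control. In the Mettl3 line they were 14.7 and 16.5% in caRNA CKO, against 23.4 and 20.1% in Control, and 21.5 and 19.3% in mRNA CKO, against 19.7 and 20.3% in Control.

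The chain with the most regions held 17 over 46.8 kb on the minus strand at chr17:40344986-40391763, 25.8 kb from Crisp1, a gene for a secreted protein of the epididymis. In Mettl14 caRNA, both CKO libraries marked 13 of the 17, against 16 in both Control libraries. In Mettl3 caRNA, 11 and 13 were marked in CKO, against 15 and 13 in Control. In Mettl14 mRNA, 6 and 5 were marked in CKO, against 1 in both Control libraries, and in Mettl3 mRNA 4 in both CKO libraries, against 6 in both Control libraries. Folds along the chain ran from 2.01 to 15.2. Every caRNA library thus marked more of these regions than any mRNA library.

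**Figure D5:**
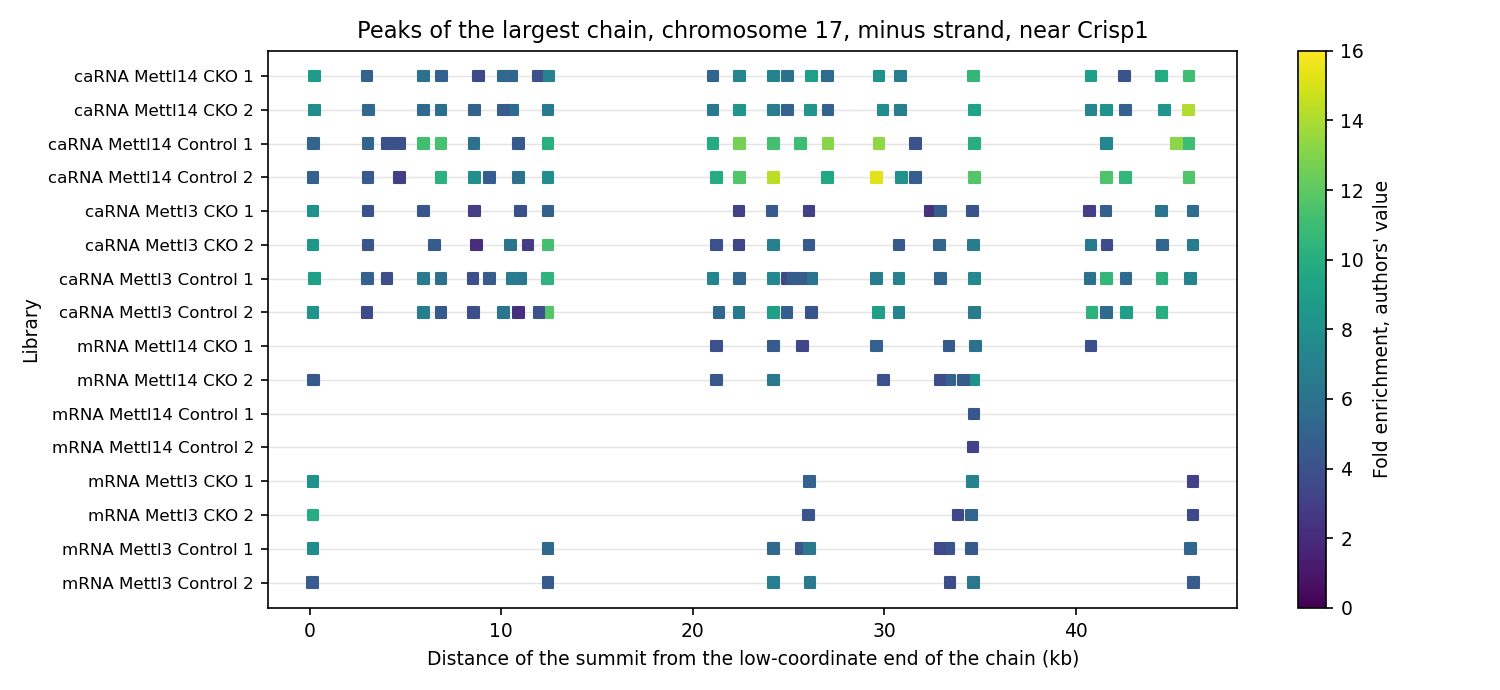
Summits of the peaks (squares) in the largest chain of far intergenic regions, chromosome 17 minus strand near Crisp1, by distance from its low-coordinate end (kb, horizontal axis) in each library (rows); colour is the authors' fold enrichment. A region can hold several peaks of a library; the caRNA libraries mark 11 to 16 of the 17 regions and the mRNA libraries 1 to 6.

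Other long chains differed by line and genotype. One of 9 regions at chr9:3000087-3024259 on the minus strand, 14.4 kb from Mir101c, had 7 and 9 regions marked in Mettl14 caRNA CKO, against 8 and 7 in Control, and 0 in all 4 Mettl3 caRNA libraries. In mRNA, 1 was marked in both Mettl14 CKO libraries, against 0 in both Control libraries, while the Mettl3 line had 5 and 6 in CKO, against 6 in both Control libraries. Its folds reached 27.7. A chain of 9 at chrX:66473804-66491220 on the minus strand, 157.7 kb from Slitrk2, a neuronal membrane protein gene, had 3 and 4 regions marked in Mettl14 caRNA CKO, against 8 in both Control libraries, and was marked in 0 mRNA libraries.

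A chain of 8 at chr10:83391032-83427242 on the plus strand, 22.2 kb from D10Wsu102e, had 4 and 3 regions marked in Mettl14 mRNA CKO, against 0 in both Control libraries, and 7 and 6 in Mettl14 caRNA CKO, against 7 and 6 in Control.

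A list of 32 pluripotency and enhancer-associated genes was checked for far intergenic neighbours, and 7 of them were the nearest gene to 13 regions (4.29% of all genes were nearest to one). No test was made of this list. Klf5, a pluripotency transcription factor, had 1 region found in 7 lists. Zfp42, also called Rex1 and a marker of naive cells, had 2, the more frequent in 5 lists. Mir290a, of a microRNA cluster abundant in embryonic stem cells, had 4, at most in 4 lists. Myc, a growth regulator, had 2, at most in 4 lists. Tfcp2l1 and Fgf4 had 1 each and Tet2 had 2, each found in 1 list. The other genes of the list, with Nanog, Sox2, Pou5f1 and Klf4 among them, were nearest to no far intergenic region.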

How the data were processed

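The analysis used 16 of the 32 samples, the immunoprecipitation libraries, and left out the 16 input samples. The authors deposited 1 peak list per library, called by strand on mm10, with replicates kept apart. Tools in the submitters' processing notes are CASAVA, Trimmomatic 0.38, HISAT2 2.1.0 and SAMtools 1.9. For the peak caller and its scaling to background, the sources used here give nothing. Per the labels' protocols, RNA was enriched with the EpiMark kit, with its spike-in RNA, and sequenced as stranded libraries (SMARTer kit of Takara). The deposited values are a fold enrichment (a ratio), a -log10 p-value and a -log10 q-value per peak, of which the lowest -log10 q per list was 2.00 to 2.02, and a display score that was not analysed. Peaks on spike-in RNA and unplaced contigs were left out. Read depth is unknown and limits every absence of a peak.

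Gene bodies were 49980 RefSeq genes of GRCm38.p6, the build called mm10. Distances ran from summit to the nearest body on either strand. The strand of the nearest gene was taken from the RefSeq promoter table, which gave it for 27025 genes. Peaks of one strand were merged into regions at an overlap of at least 1 bp, within each comparison for lost and gained calls and over all lists otherwise. Neighbouring regions of one strand within 10 kb, present in at least 2 lists, formed a chain.

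Shares were tested by exact permutation of library labels within strata, with Benjamini-Hochberg adjustment over 6 tests, and properties by exact sign flips over 8 group means, adjusted over 3. Scripts (Python 3.11.15, NumPy 2.4.6, pandas 2.3.3, SciPy 1.17.1) were tested on simulated data. Regions were named by rule: the 10 strongest in all lists and 6 found in caRNA alone by median fold percentile, the 5 strongest lost and gained per comparison, those called in both lines, and the 6 chains with most regions; examples of these are given, and 1 chain is not reported here. The members and lists were chosen with earlier results of these data known. Alternatives were limits of 5 and 20 kb, the whole peak far from genes, predicted genes and pseudogenes left out, -log10 q of at least 5, the 10000 strongest peaks, summits within 100 nt, overlap without strand, each library left out and a replicate block.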

Additional observations from a re-analysis of the deposited data

Results flagged for a closer look

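The CKO effect on the share of far intergenic peaks differed between caRNA and mRNA of the Mettl14 line by -3.08 percentage points, since both CKO lists lay under both Control lists in caRNA and above them in mRNA. In mRNA it differed between the Mettl14 and Mettl3 lines by 2.61 points. Each difference had an exact permutation p of 0.0556, the smallest possible with 36 splits. Both differences were picked from these data by their opposite directions, so this p is descriptive only. In the 10000 strongest peaks the 3 effects were -0.19 points in Mettl14 caRNA, 0.14 in Mettl14 mRNA and -0.16 in Mettl3 mRNA.

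Peaks on unplaced contigs, outside the rule, averaged more in CKO than in Control lists in 3 comparisons. The CKO mean was 28 peaks in Mettl14 caRNA (27 and 29, against 24 and 26 in Control), 23.5 in Mettl3 caRNA (24 and 23, against 19 in both Control libraries) and 10 in Mettl14 mRNA (10 in both CKO libraries, against 5 and 3 in Control). These differences were not tested. With 2 libraries per group, no library could be screened as standing apart within its group.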

How the results depend on the processing

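The 4 reversals came with the 10000 strongest peaks per library, which sets length and strength together. There, CKO minus Control reversed to 0.19 points in caRNA and -0.01 in mRNA, the difference between lines to -0.23 and that between RNA types to 0.20, while caRNA minus mRNA was 0.378 and the fold percentile difference 13.4. Far intergenic regions were then lost at 27.2% (Mettl14 caRNA), 20.3% (Mettl3 caRNA, against 30.3% over all regions), 17.1% (Mettl14 mRNA) and 21.1% (Mettl3 mRNA), and gained at 17.5% (Mettl14 caRNA), 14.8% (Mettl14 mRNA) and 19.0% (Mettl3 mRNA). The cause was not tested. A limit of 5 kb gave caRNA minus mRNA 1.59 points, a plus-strand difference of 4.65 points, Mettl14 caRNA gained 9.47% and Mettl3 mRNA lost 20.1%. A limit of 20 kb gave Mettl14 caRNA gained 6.01% and Mettl14 mRNA lost 3.16%. Without predicted genes and pseudogenes the plus-strand difference was 2.80 points, lost shares were 19.0% (Mettl14 caRNA), 3.95% (Mettl14 mRNA) and 18.8% (Mettl3 mRNA), and gained shares 8.39% (Mettl14 caRNA), 25.1% (Mettl3 caRNA), 37.2% (Mettl14 mRNA) and 6.73% (Mettl3 mRNA). At -log10 q of at least 5, the plus-strand difference was 4.61 points and Mettl14 caRNA gained 8.83%. Mettl14 caRNA gained was 8.59% with the whole peak far from genes and 8.52% without strand. With summits within 100 nt, lost shares were 27.1% (Mettl14 caRNA), 6.01% (Mettl14 mRNA) and 25.8% (Mettl3 mRNA), and Mettl14 caRNA gained 13.1%. In all, 96 other values recomputed in these ways kept their direction and side of the threshold, or stayed within the spread between replicates, and the alternatives for differences of effects were chosen after seeing the data.

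Leaving out each library in turn gave 0.921 to 0.996 points for caRNA minus mRNA, 0.155 to 0.230 for CKO minus Control, -0.497 to -0.377 in caRNA, 0.748 to 0.897 in mRNA, 0.715 to 0.863 between lines and -1.33 to -1.19 between RNA types. Lost shares were 30.9 to 33.5% (Mettl14 caRNA), 30.3 to 37.0% (Mettl3 caRNA), 3.99 to 5.51% (Mettl14 mRNA) and 30.9 to 34.2% (Mettl3 mRNA). Gained shares were 12 to 14.9%, 37.7 to 44.4%, 55.2 to 61.2% and 13.5 to 18.5% in that order. A lost or gained call then needs fewer libraries, so these shares cannot be set against those of the main setting. The overlap difference was 0.204 to 0.224. Shared replicate numbers did not pair the libraries (correlations of replicate deviations -0.0137 to 0.0176), and with the replicate block caRNA minus mRNA stayed 0.959 points (adjusted exact permutation p = 0.234) and no call changed.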
